A study of Homo sapiens with 18 samples.

Results

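The Hippo pathway limits the activity of YAP1 and its paralog WWTR1, which is also known as TAZ. In its core, the MST kinases STK4 and STK3 activate the LATS kinases LATS1 and LATS2, which phosphorylate YAP1 and WWTR1 and keep them out of the nucleus. When they are not phosphorylated, both coactivators enter the nucleus and switch on genes through the TEAD transcription factors, which bind DNA where the coactivators do not. YAP1 activity is known to respond to cell spreading and tension, and in the pancreas to restrain the choice of the endocrine fate. The genes described here are these 10: *YAP1*, *WWTR1*, *TEAD1*, *TEAD2*, *TEAD3*, *TEAD4*, *LATS1*, *LATS2*, *STK3* and *STK4*. They were chosen by name as the kinases, coactivators and DNA-binding factors of the pathway's core, and they are 10 of the 21944 genes in the deposited table. All 10 were listed at 3, 6 and 24 h.

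The samples were pancreatic progenitors differentiated from human embryonic stem cells. On day 19 of differentiation the cells were detached with accutase and reseeded on fibronectin (FN) or on laminin-411 (LN411), a laminin to which cells adhere weakly. They were harvested after 3, 6 or 24 h, which gives 6 groups of 3 samples: FN and LN411 at 3 h, FN and LN411 at 6 h, and FN and LN411 at 24 h. The labels name the HUES4 line, while the growth protocol names NGN3-GFP cells derived from SA121, which carry a GFP reporter for NEUROG3. The paper's figure legend for this sequencing on FN and LN411 also names NGN3-GFP cells. The labels differ from both of these sources, so the line is uncertain. Poly(A) RNA was sequenced in bulk, and in such samples fewer cells of a type cannot be told apart from less RNA per cell.

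The value used is a single mean for each gene, which the authors formed over all 18 samples after dividing the read counts by size factors. Between the 3 times this mean differed by a relative 4.89e-07 at most. Single samples were not analysed here, and the authors' own estimates of the LN411 effect were left out. No comparison of LN411 with FN was therefore made here, no spread between replicates can be given, and every difference below is between genes and has no test. The depth of single libraries is unknown. A mean normalized count grows with transcript length, so genes were compared by a length-scaled level: the mean normalized count divided by the length of the gene's canonical transcript and scaled so that all genes sum to 1000000. This level, in parts per 1000000, is given below as ppm.

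The progenitor label was checked against marker genes. The defining markers *PDX1* (232 ppm), *SOX9* (245 ppm), *NKX6-1* (40.8 ppm) and *GP2* (1900 ppm) were all above the median of protein-coding genes, 14.4 ppm. Of the 9 progenitor markers analysed, 8 were above it. This median and the percentiles below refer to the 15355 protein-coding genes analysed here, unless another background is named. Coding genes that were not analysed are left out of them. *PTF1A*, a factor of multipotent and acinar cells, was at 0.377 ppm. Among markers of other cell types, the 4 endothelial genes lay between 0.0588 and 0.514 ppm. The blood markers *PTPRC*, *HBG1* and *CD68*, the progenitor marker *RBPJL* and the pluripotency genes *POU5F1* and *NANOG* were not analysed here. Of the 7 mesenchyme markers, *COL1A2* (415 ppm) and *COL1A1* (32.3 ppm) were above the median and *PRRX1* and *TWIST1* were at 0.0610 and 0.409 ppm. Of the 4 liver markers, *TTR* (4335 ppm), *APOA1* (706 ppm) and *AFP* (513 ppm) were above the median and *ALB* was at 13.1 ppm. Of the 8 endocrine markers, *CHGA* (101 ppm) and *SST* (44.7 ppm) were above the median, and the other 6 lay between 0.678 ppm for *GCG* and 13.5 ppm for *NEUROG3*. Of 4 markers of pluripotent cells, the 2 analysed were *LIN28A* at 121 ppm and *ZFP42* at 9.93 ppm. The 3 intestinal markers analysed were *VIL1* (145 ppm), *CDX2* (48.1 ppm) and *LGR5* (0.366 ppm), and the 2 acinar ones *PRSS1* (139 ppm) and *CPA1* (3.46 ppm). The part of cells other than progenitors in the levels below was not tested.

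Paralogs can share reads, and the canonical transcripts of the members were compared with each other for this reason. In their coding parts, *TEAD3* and *TEAD4* were identical at 73.9% of 1270 aligned bases, the highest identity among the 6 TEAD pairs, and *TEAD1* and *TEAD2* at 67.6% of 1263, the lowest. *YAP1* and *WWTR1* were identical at 67.3% of 1149 aligned bases, *LATS1* and *LATS2* at 63.5% of 3118, and *STK3* and *STK4* at 75.5% of 1445. Only the pair *TEAD3* and *TEAD4*, among these 9 pairs, had an identical stretch of at least 50 bases. It is 56 bases long and is shown because a read that falls within it cannot be assigned to either gene. In *TEAD3* it lies on the minus strand of GRCh38, with 48 bases in exon 12 (chr6:35475336-35475383) and 8 in exon 13 (chr6:35475150-35475157). In *TEAD4* it lies on the plus strand, with 48 bases in exon 12 (chr12:3040212-3040259) and 8 in exon 13 (chr12:3040365-3040372). All of it is coding in both genes. The GENCODE v44 sequences are given 5′ to 3′ along the transcript, with the shared stretch in capitals and 20 bases of flank on each side.
TEAD3: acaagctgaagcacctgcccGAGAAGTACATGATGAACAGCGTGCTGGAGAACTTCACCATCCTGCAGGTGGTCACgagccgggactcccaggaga
TEAD4: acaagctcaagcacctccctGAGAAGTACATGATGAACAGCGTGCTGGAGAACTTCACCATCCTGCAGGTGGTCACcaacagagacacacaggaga
The stretch holds 7 different sequences of 50 bases, which are 0.238% of those in the *TEAD3* transcript and 0.421% of those in *TEAD4*. The longest identical stretch was 21 bases between *YAP1* and *WWTR1*, 20 between *LATS1* and *LATS2*, and 23 between *STK3* and *STK4*. No other stretch of 50 bases was shared between any of the 10 genes.

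*YAP1* had the highest level of the 10 genes, on either scale. *YAP1* (ENSG00000137693) lies on chromosome 11 of GRCh38 from 102110447 to 102233424, on the plus strand. Its canonical transcript has 9 exons and 5401 bases, of which 1512 are coding and 3484 are 3′ UTR. The mean normalized count of *YAP1* was 8721, which is above 92.3% of protein-coding genes, and its length-scaled level was 75.3 ppm, above 85.5% of them. This level was 5.21 times the median of protein-coding genes.

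*WWTR1* (ENSG00000018408), on chromosome 3 from 149517235 to 149736714 on the minus strand, encodes TAZ. Its mean normalized count was 3475 over a canonical transcript of 5037 bases, and its length-scaled level was 32.2 ppm, above 68.6% of protein-coding genes. Per length, *YAP1* was 2.34 times as high as *WWTR1* and made up 70.1% of the sum of both. This order depends on the length chosen. With the median length of protein-coding transcripts, the share of *YAP1* was 46.4%, below that of *WWTR1*. That median is 826 bases over the 8 coding transcripts of *WWTR1*, shorter than the 1200 coding bases of its canonical transcript. With the union of exons the share of *YAP1* was 76.9%, and with no length 71.5%. For both genes the longest transcript is as long as the canonical one, so that setting could not change the share.

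**Figure D1:**
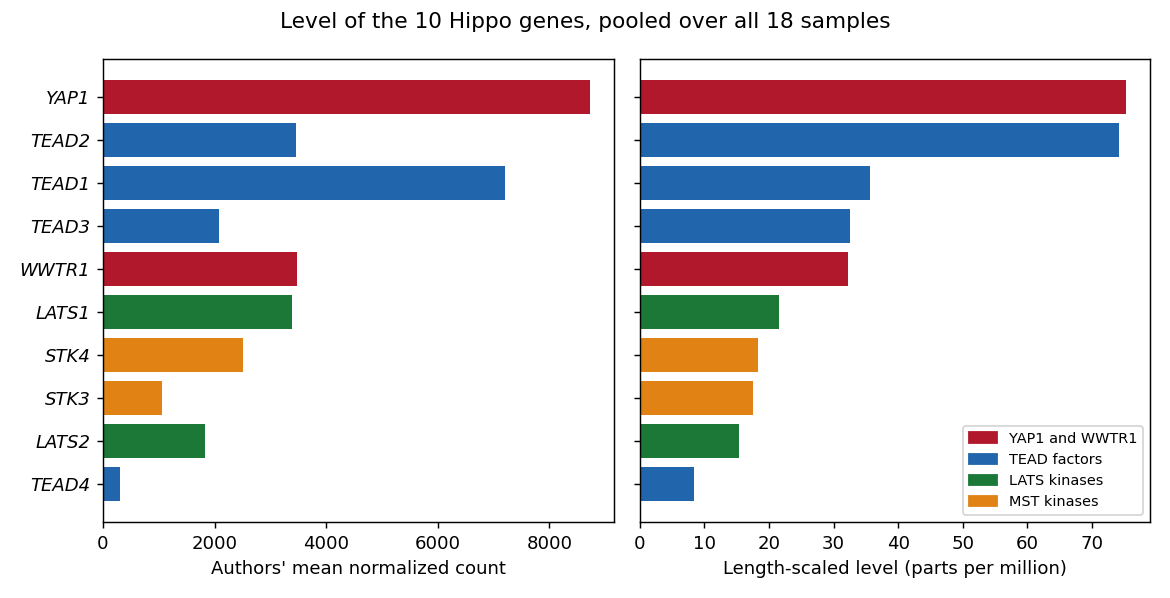
Bars give the authors' mean normalized count (left panel) and the length-scaled level in ppm (right panel) of the 10 genes, each pooled over all 18 samples, coloured by role; there are no error bars because no values per sample were used. *YAP1* leads both panels, while *TEAD1* falls from the second place to the third and *TEAD2* rises from the fourth to the second once length is taken into account.

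The TEAD factors carry the DNA-binding domain of the complex and have no strong activity without a coactivator. *TEAD2* (ENSG00000074219, chromosome 19, 49340595 to 49362457, minus strand) was the most abundant per length at 74.2 ppm, above 85.2% of protein-coding genes. *TEAD1* (ENSG00000187079, chromosome 11, 12674421 to 12944737, plus strand) followed with 35.7 ppm, and *TEAD3* (ENSG00000007866, chromosome 6, 35473597 to 35497079, minus strand) with 32.6 ppm. *TEAD4* (ENSG00000197905, chromosome 12, 2959330 to 3040676, plus strand) was at 8.45 ppm, the lowest of the 10 genes and the only one below the median of protein-coding genes with canonical lengths. With the union of exons *STK3* (6.64 ppm) was below *TEAD4* (10.7 ppm), and with the median coding transcript *LATS2* (9.26 ppm) was below *TEAD4* (10.9 ppm). In shares of the TEAD sum, *TEAD2* made up 49.2%, *TEAD1* 23.6%, *TEAD3* 21.6% and *TEAD4* 5.60%.

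The place of *TEAD1* relative to *TEAD2* turned on transcript length. The mean normalized count was 7207 for *TEAD1* and 3460 for *TEAD2*, so that *TEAD1* drew 2.08 times as many reads. Its canonical transcript is 9417 bases long, 4.33 times that of *TEAD2* at 2175 bases, and 7515 of the 9417 bases are 3′ UTR. Per length, *TEAD2* was 2.08 times as high as *TEAD1*. *TEAD1* was the higher one with the median length of protein-coding transcripts, with 44.9% of the TEAD sum against 30.6% for *TEAD2*. With the longest transcript or the union of exons, *TEAD2* kept the largest share, at 46.3% and 43.7%. *TEAD4* had a mean normalized count of 310 and at most 7.41% of the TEAD sum in any of these settings, so that its place as the least abundant TEAD did not depend on length. The values of *TEAD1* and *TEAD3* differed by 1.09-fold per length, and they changed places with the union of exons, at 25.4% and 25.8% of the sum.

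**Figure D2:**
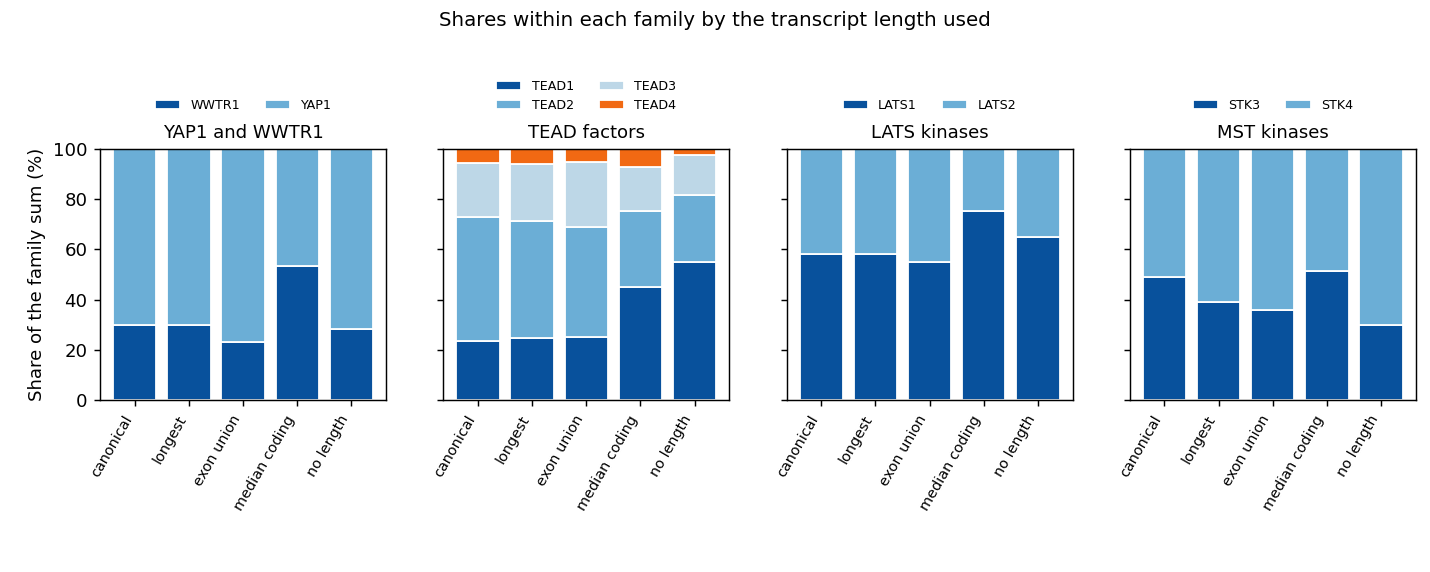
Stacked bars give each gene's share, in percent, of the sum of its family (YAP1 and WWTR1, TEAD factors, LATS kinases, MST kinases) under 5 choices of the length that divides the mean normalized count: the annotation's canonical transcript, the longest one, the union of all exons, the median over coding transcripts, and no length. *YAP1* holds 70.1% with the canonical transcript and 46.4% with the median coding transcript, *TEAD2* holds 49.2% and 30.6%, and *TEAD4* stays the smallest TEAD share throughout.

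Each of the 4 kinases was below *YAP1* and *WWTR1* per length. *LATS1* (ENSG00000131023, chromosome 6, 149658153 to 149718105, minus strand) had a mean normalized count of 3395 over 7362 bases and a length-scaled level of 21.5 ppm. *LATS2* (ENSG00000150457, chromosome 13, 20973036 to 21061586, minus strand), which is itself a known target of YAP1, had 1830 over 5546 bases and 15.4 ppm. These are the longest coding parts among the members, with 1130 codons in *LATS1* and 1088 in *LATS2*. *LATS1* was 1.40 times as high as *LATS2* per length and held 58.3% of their sum, and it stayed above *LATS2* under every length tried, with 55.1% to 75.1%.

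The MST kinases, which act upstream of LATS1 and LATS2, were nearly even with canonical transcripts, but not under every length tried. *STK4* (ENSG00000101109, chromosome 20, 44966494 to 45080021, plus strand) encodes MST1 and was at 18.3 ppm, with a mean normalized count of 2503 over 6366 bases. *STK3* (ENSG00000104375, chromosome 8, 98371228 to 98942827, minus strand) encodes MST2 and was at 17.5 ppm, with 1063 over 2833 bases. The counts differed by 2.35-fold and the transcript lengths by 2.25-fold, which left a ratio of 1.05 per length. *STK3* held 48.8% of the sum with canonical transcripts, 51.5% with the median coding transcript, 39.1% with the longest transcript and 29.8% with no length. With the union of exons, which is 12604 bases for *STK3* and 16570 for *STK4*, *STK3* held 35.8%. An order of these kinases cannot be read from these values.

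Summed by family, the TEAD factors and the coactivators were above the kinases. The sum of the TEAD genes was 151 ppm, that of *YAP1* and *WWTR1* 107 ppm, that of the LATS genes 36.9 ppm and that of the MST genes 35.8 ppm. The coactivators were thus 2.91 times as high as the LATS kinases and 3.00 times as high as the MST kinases per length, and 1.48 times as high as all 4 kinases together. Over the settings of length, these 3 ratios ranged from 2.33 to 5.92, from 3.00 to 9.44 and from 1.39 to 3.64. The TEAD sum was 1.40 times the coactivator sum with canonical transcripts and 0.665 times with the median coding transcript. The LATS sum and the MST sum differed by 1.03-fold with canonical transcripts and by 3.08-fold with the union of exons.

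Ordered by level per length, the 10 genes ran *YAP1*, *TEAD2*, *TEAD1*, *TEAD3*, *WWTR1*, *LATS1*, *STK4*, *STK3*, *LATS2* and *TEAD4*. The spread over samples is unknown, so it cannot be said which neighbours differ beyond it. In 6 of the 9 pairs of neighbours the higher gene was less than 1.2 times the lower one, among them *YAP1* and *TEAD2* at 1.01 and *TEAD3* and *WWTR1* at 1.01. The widest steps were 2.08-fold between *TEAD2* and *TEAD1*, 1.82-fold between *LATS2* and *TEAD4*, and 1.50-fold between *WWTR1* and *LATS1*. Across the 10 genes, the mean normalized count followed transcript length with a Spearman correlation of 0.48, and the length-scaled level with one of 0.18. These correlations are across genes of the same libraries, which are no replicates, and over the 15355 protein-coding genes the first was 0.19.

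**Figure D3:**
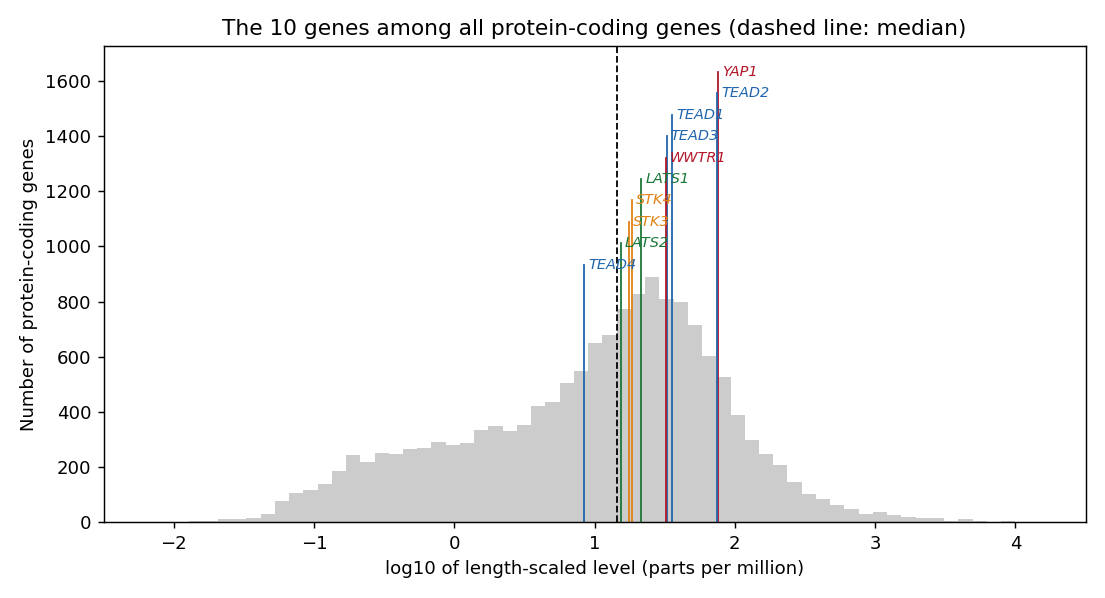
The histogram gives the number of protein-coding genes by length-scaled level (log10 of ppm), with a coloured line for each of the 10 genes and a dashed line at the median of 14.4 ppm. With canonical lengths, 9 of the 10 genes lie to the right of the median, *TEAD4* lies to its left, and *YAP1* and *TEAD2* lie together at the upper end.

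Against the 15355 protein-coding genes analysed here, the core of the pathway was expressed at a moderate level. The median of the 10 genes was 26.8 ppm, at a median percentile of 63.7, with a range from 8.45 to 75.3 ppm. With canonical lengths, 9 of the 10 were above the median of protein-coding genes. This number was 7 with the union of exons, where *STK3* and *STK4* were also below it, and 8 among coding genes listed at all 3 times or with a count of 10 or more, where *LATS2* was. Of the mean normalized counts, 9 of 10 reached 1000. With canonical lengths the kinases lay between the percentiles 51.4 for *LATS2* and 58.8 for *LATS1*. With the union of exons they spread from 35.4 for *STK3* and 45.2 for *STK4* to 61.9 for *LATS2* and 66.8 for *LATS1*.

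The adaptors and regulators around the core were also expressed, many of them above the kinases. Of 35 other upstream and adaptor genes, 28 were above the median of protein-coding genes, and their median was 39.2 ppm. *MOB1A* (98.6 ppm) and *MOB1B* (48.4 ppm) encode the coactivators of the LATS kinases, and their sum was 3.98 times that of *LATS1* and *LATS2*. *SAV1*, the scaffold that binds the MST kinases, was at 27.0 ppm, 1.48 times *STK4*. *NF2*, which recruits LATS kinases to the membrane, was at 20.3 ppm and *WWC1*, its partner KIBRA, at 71.9 ppm. *MAP4K4*, a kinase that can phosphorylate LATS1 and LATS2 in place of the MST kinases, was at 86.9 ppm, which is 4.74 times *STK4* and 4.97 times *STK3*. With the union of exons these ratios were 8.23 and 14.7. *STK38* (49.5 ppm) and *STK38L* (39.2 ppm), which encode the NDR kinases most closely related to LATS1 and LATS2, were 2.30 and 1.83 times as high as *LATS1*. The angiomotins *AMOT*, *AMOTL1* and *AMOTL2*, which bind YAP1 and hold it outside the nucleus, summed to 157 ppm, 1.46 times the coactivators. The 6 YWHA genes, whose proteins bind phosphorylated YAP1 and WWTR1 in the cytoplasm, summed to 1699 ppm, 15.8 times the coactivators, whereas the related *SFN* was at 0.753 ppm. All these ratios are of RNA levels, and amounts of protein and binding were not analysed here.

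The VGLL proteins compete with YAP1 and WWTR1 for the TEAD factors. Of the 4 genes, *VGLL4* was at 31.2 ppm, 0.970 times *WWTR1*, and made up 90.4% of their sum. *VGLL1*, *VGLL2* and *VGLL3* lay at 0.456, 1.58 and 1.27 ppm, all below the median of protein-coding genes. The sum of *YAP1* and *WWTR1* was 3.11 times that of the VGLL genes, and the TEAD sum was 1.06 times the sum of all these partners.

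Of 22 known target genes of YAP1 and WWTR1, 21 were analysed, with a median of 38.5 ppm, and 17 were above the median of protein-coding genes. *ANKRD1*, a nuclear ankyrin repeat protein, was the highest at 496 ppm, 6.59 times *YAP1*. The matrix protein genes *CCN2* and *CCN1* were at 115 and 104 ppm. *RBMS3* was the lowest at 0.192 ppm. The list overlaps the regulators, since *AMOTL2* (72.7 ppm), *AJUBA* (94.8 ppm), *WWC1* and *PTPN14* (18.3 ppm) are in both, and *LATS2* is one of the 10 genes.

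**Figure D4:**
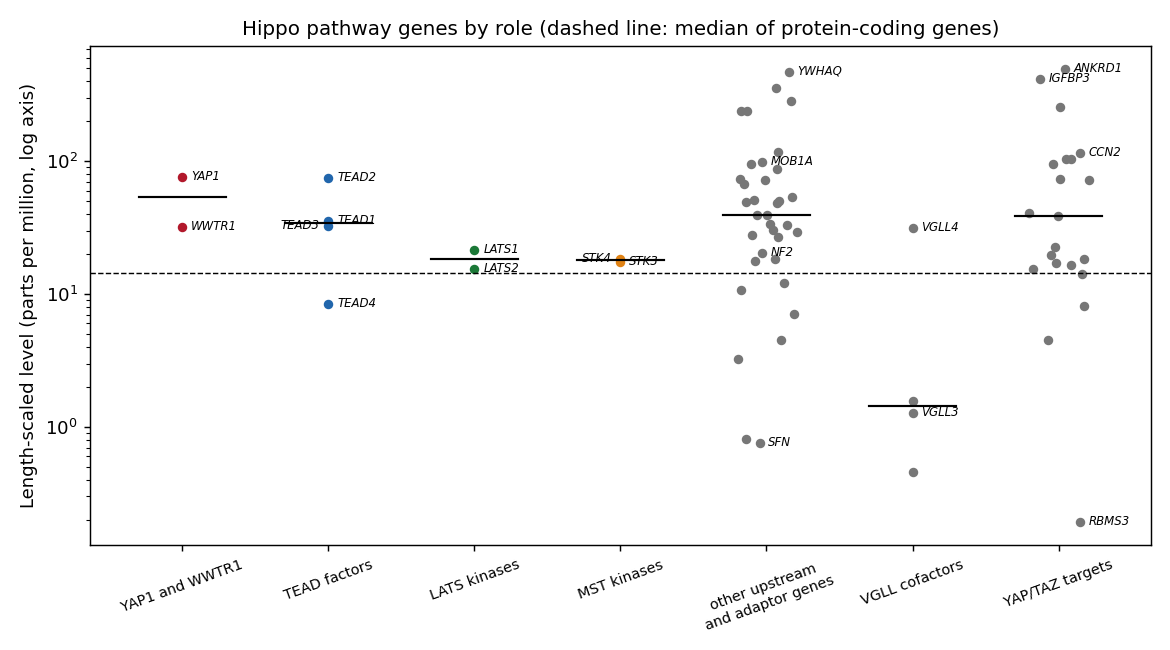
Points give the length-scaled level (ppm, log axis) of each gene of the pathway by role. A black bar marks the median of each group, and a dashed line the median of the 15355 protein-coding genes analysed, 14.4 ppm. The upstream and target lists have medians of 39.2 and 38.5 ppm, above those of the LATS and MST kinases at 18.4 and 17.9 ppm, and *VGLL4* stands apart from the other VGLL genes.

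Some of the members share exonic bases with genes on the other strand, and the methods do not say whether counting used the strand. *TEAD2* overlaps 319 exonic bases of *CD37*, a gene of white blood cells, which had a mean normalized count of 691. *WWTR1* overlaps *WWTR1-AS1* by 756 bases, with a mean normalized count of 11.6 for the antisense gene, and *YAP1* has 639 of its 6311 exonic bases, or 10.1%, under 2 long non-coding RNA genes of the other strand. *LATS1* has such an overlap over 257 bases and *STK3* over 106, while none was annotated for *TEAD1*, *TEAD3*, *TEAD4*, *LATS2* and *STK4*. No member shared exonic bases with a gene on its own strand. *YAP1* also shares 29 sequences of 50 bases, 0.542% of its transcript, with the pseudogene *YAP1P1*, and *STK4* shares 1.68% with transcripts of 258 other genes. The part of these overlaps in the levels was not tested.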

How the data were processed

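Bulk RNA sequencing of 18 samples was used. According to the paper's methods, the authors aligned reads to GRCh38.p13 with STAR, counted them per gene with the GENCODE v32 annotation and normalized them with DESeq2, for which the submitters' processing notes give STAR 2.7.2d and DESeq2 1.34.0. The mean normalized count in the deposited table is a signal, which the authors obtained by dividing counts by size factors and taking the mean of all samples. The table's 5 other columns of values hold the authors' comparison of LN411 with FN at each time (log2 fold change, its error, statistic, p-value and adjusted p-value) and were not used. The count model planned for this comparison was not run, as values per sample were not analysed here.

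Genes were matched by Ensembl identifier to GENCODE v44 on GRCh38, for 21861 of 21944 genes (99.6%). The assembly is that of the authors, but the counts used GENCODE v32, so counts and lengths rest on different annotations. The part of this in the levels, including those with the union of exons, was not tested. Levels were divided by the canonical transcript and scaled to sum to 1000000. Alternatives were the longest transcript, the union of exons, the median coding transcript, no length, and other backgrounds for percentiles. For *WWTR1* and *TEAD4* the median coding length, 826 and 801 bases, was below the coding part of the canonical transcript, 1200 and 1302 bases. Levels of these genes in that setting are therefore raised by annotated transcripts shorter than the full coding part. Shared sequence was sought as identical stretches of 50 bases on both strands, since the read length is not given in the sources used here. Protein sequences were not analysed here. The scaling, shares and percentiles were tested on simulated data, with limits of error that were widened after a first run in which they lay below counting noise. The simulated counts were made and scaled with the same canonical lengths. This checks the calculation and cannot test the choice of length or of annotation. Members and gene lists were chosen with earlier results of these data known. The genes named are the 10 members, and of each pathway list the highest, the lowest and the paralogs or binding partners of the members, beside marker genes. The ratios between members and partners, the sums over partners, the count of 1000, the 1.2-fold limit for neighbours, and the overlapping genes were chosen after values were seen. Calculations used numpy 2.4.6, scipy 1.17.1 and pandas 2.3.3 in Python 3.11.15.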

Additional observations from a re-analysis of the deposited data

How the results depend on the processing

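All values rest on 1 mean per gene, so the error of a level, the depth of each library and the effect of leaving out a replicate could not be given. No paired analysis was possible because no values per sample were used and no test was made; the planned fits of LN411 against FN were not run. A value is given as changed where it differed at 3 digits, as no spread is known. For 7 of the 10 genes, the longest transcript is as long as the canonical one. Among them are *YAP1*, *WWTR1*, *LATS1* and *LATS2*, so the shares of 70.1% for *YAP1* and 58.3% for *LATS1* could not change in this setting. The other shares moved to 39.1% for *STK3* and to 25.0%, 46.3%, 22.8% and 5.92% for *TEAD1* to *TEAD4*. With the union of exons the shares were 76.9% for *YAP1*, 55.1% for *LATS1*, 35.8% for *STK3* and 25.4%, 43.7%, 25.8% and 5.13% for *TEAD1* to *TEAD4*. With the median coding transcript they were 46.4%, 75.1%, 51.5%, and 44.9%, 30.6%, 17.1% and 7.41%, and with no length 71.5%, 65.0%, 29.8%, and 55.2%, 26.5%, 16.0% and 2.37%, in the same order of genes. The number of genes out of their place in the order of 10 was 3 with the longest transcript, 6 with the union of exons and 9 with the median coding transcript. The median percentile of the 10 genes, 63.7, became 73.8 among all listed genes, 61.4 among coding genes listed at all 3 times, 61.9 among coding genes whose mean normalized count reached 10, and 67.3 with the union of exons. Among all listed genes the percentile of each of the 10 genes was higher, with the other 2 backgrounds each was lower, and with the union of exons 7 were higher and 3 lower. For the ratios between members and partners, the union of exons was the only other length tried, a choice made after seeing the data. Of the ratios given above, those of *MAP4K4* to *STK4* and *STK3* moved by over 1.5 times, to 8.23 and 14.7.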
